A study of Mus musculus with 10 samples.

Results

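The dystrophin-glycoprotein complex was followed through 8 genes, Dmd, Utrn, Dag1, Sgca, Sgcb, Sgcd, Sntb1 and Dtna, chosen by symbol and found in every table among the 23417 genes listed for each Huwe1 comparison and the 23431 listed for the USP10 comparison. The RNA came from C2C12, a mouse myoblast line that fuses into myotubes when serum is reduced, here from 10% FBS to 2% horse serum. Huwe1 is an E3 ubiquitin ligase and USP10 a deubiquitinase, and the study asked how this pair acts on the TATA-binding protein during myotube formation. Knockdown cultures carried an shRNA against Huwe1, were made with lentivirus and puromycin, and were set against controls in growth medium (day 0), on day 6 of differentiation and as day 8 myotubes infected after differentiation had begun. USP10 was overexpressed from an EF1a promoter in a stable line and collected on day 6.

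The day 0 and day 6 controls are labelled wildtype, whereas the day 8 control received a non-targeting RNA. In each Huwe1 comparison 1 control library stood against 2 knockdown libraries, each with its own shRNA and given by the authors as a single pooled column, and in the USP10 comparison 1 library stood on each side. The hairpins that the labels give for day 0 and day 6 are not those of the methods, while those for day 8 are, so day 6 and day 8 knockdowns may differ in hairpin as well as in stage. All values are FPKM, fragments scaled to transcript length and to library size, so that levels of different genes are on a per-length scale. No condition has a replicate value. No difference below therefore has a replicate check, an error or a p-value, and each is a description of these libraries. The control of the USP10 table bears the name of the day 6 wildtype control but holds other values, so which library it came from could not be settled. Tables were normalized separately, and levels set across them are descriptions only. The depth, estimated from the lowest FPKM steps, was 7.81e+06 fragments in the control column of the USP10 table, and between 1.81e+07 and 3e+07 in the other single libraries. Huwe1 itself was at 38.3 FPKM in the control against 15.2 in the knockdown at day 0, at 35.1 and 21.9 at day 6, and at 55.4 and 33 at day 8. Myod1, a myoblast determinant, was present in all 8 columns, at 9.30 to 155 FPKM. Usp10 was at 10.3 FPKM in the control and 38.3 in the overexpressing library. In the Huwe1 tables, where no transgene was used, it was at 68.5 FPKM in the control against 64.2 in the knockdown at day 0, at 13.2 and 35.4 at day 6, and at 14.5 and 13.1 at day 8.

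The complex spans the muscle membrane and ties the actin cytoskeleton to the basement membrane. Dystrophin binds actin inside the cell and beta-dystroglycan at the membrane, alpha-dystroglycan holds laminin outside it, the sarcoglycans form a side unit that steadies this link, and syntrophins and dystrobrevins dock signalling proteins to it. Loss of dystrophin causes Duchenne muscular dystrophy, and loss of single sarcoglycans causes limb-girdle muscular dystrophies.

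RefSeq promoter windows (GRCm38.p6, the build the tables' mm10 coordinates belong to) were read for 6 of the 8 members, without Sntb1 and Dtna. The 250 bases before the start are shown for Dmd, whose table row covers transcripts from a muscle start and from a start near the end of the gene that gives a short isoform, for Utrn, whose day 6 level moved against that of Dmd, and for Sgca and Sgcd, the sarcoglycans with the smallest and the largest day 6 difference among the members. Capitals mark matches on either strand to the E-box CANNTG, the MCAT element CATTCC, the GC box GGGCGG, the TATA box TATAAA, the CArG box and the MEF2 box.
Dmd, muscle start, plus strand, chrX:82948620-82948869: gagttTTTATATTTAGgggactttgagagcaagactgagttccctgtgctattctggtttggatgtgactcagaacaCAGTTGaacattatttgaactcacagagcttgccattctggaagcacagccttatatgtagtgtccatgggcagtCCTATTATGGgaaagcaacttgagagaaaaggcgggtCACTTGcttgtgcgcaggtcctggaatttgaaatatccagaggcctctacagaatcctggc
Dmd, start near the end of the gene, plus strand, chrX:85048045-85048294: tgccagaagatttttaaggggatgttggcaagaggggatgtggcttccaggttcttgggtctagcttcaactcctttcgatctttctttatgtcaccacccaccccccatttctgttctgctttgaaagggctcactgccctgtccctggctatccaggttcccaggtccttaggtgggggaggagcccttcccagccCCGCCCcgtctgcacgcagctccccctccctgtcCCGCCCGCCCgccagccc
Utrn, minus strand, chr10:12861736-12861985: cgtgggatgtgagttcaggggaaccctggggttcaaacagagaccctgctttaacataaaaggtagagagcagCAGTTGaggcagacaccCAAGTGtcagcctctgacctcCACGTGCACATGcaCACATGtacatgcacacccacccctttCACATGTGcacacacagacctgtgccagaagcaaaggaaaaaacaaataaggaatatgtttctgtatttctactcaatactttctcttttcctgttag
Sgca, minus strand, chr11:94976328-94976577: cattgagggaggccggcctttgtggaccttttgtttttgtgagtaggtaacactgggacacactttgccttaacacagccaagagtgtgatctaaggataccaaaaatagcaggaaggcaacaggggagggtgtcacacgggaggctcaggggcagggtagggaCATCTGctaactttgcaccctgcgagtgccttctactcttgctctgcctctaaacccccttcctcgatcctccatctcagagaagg
Sgcd, minus strand, chr11:47379326-47379575: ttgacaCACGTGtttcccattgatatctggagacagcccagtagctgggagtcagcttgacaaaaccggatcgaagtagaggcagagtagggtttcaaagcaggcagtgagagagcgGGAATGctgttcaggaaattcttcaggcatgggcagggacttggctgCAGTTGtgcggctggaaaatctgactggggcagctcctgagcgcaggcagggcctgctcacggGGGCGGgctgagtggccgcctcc

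The muscle start of Dmd had 2 E-boxes, at -173 and -61, a CArG box at -98 and, at -244, a MEF2 box that overlaps a TATAAA match. Among 32851 windows of the same length, 66.2% held an E-box, 1.47% a CArG box, 2.92% a MEF2 box and 12.4% a TATAAA match. The second Dmd start held none of these and had 3 GC boxes, a motif found in 32.7% of windows. Sgca had 1 E-box, at -86. Sgcd had 2 E-boxes, 1 GC box and 1 MCAT element, which 12.6% of windows held. Utrn had 7 E-boxes and no other match, and its window lies before the start of the locus listed in the tables. The RefSeq genes reach further upstream than the first window of Dmd, to 82814664, and than those of Utrn, to 12869888, and Sgcd, to 47989451, so further starts of these genes are not shown. The Utrn window thus lies inside the RefSeq gene, and whether it acts as a promoter was not tested. A match is a description of the letters and was not tested as a binding site.

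Across control cultures of the Huwe1 series the 8 members were lower in myoblasts than after differentiation, utrophin only slightly so at day 6. Dmd was listed at 0 FPKM in both day 0 columns and at 3.93 in the day 6 and 2.62 in the day 8 control. Dag1 was at 44.5, 286 and 318 FPKM in the same order, and Sgca at 1.74, 85.6 and 41.8. Sgcb was at 24.6, 158 and 68.5 FPKM, and Sgcd at 3.53, 22.3 and 14.2. Both dystroglycan and the sarcoglycan members were thus lowest at day 0, and the sarcoglycan members were highest at day 6. Sntb1 was at 3.43, 86.5 and 84.6 FPKM, and Dtna at 6.74, 40.9 and 39.3. Utrn was at 23.0, 28.6 and 50.9 FPKM, the member with the smallest log2 difference (0.32) between the day 0 and day 6 controls. The value of 0 for Dmd does not by itself show absence, since an exact 0 can also be an estimate that failed. Its day 0 row was marked as not tested rather than failed, and 4 rows of that comparison were marked failed. Of 76 loci of at least 1 Mb, 42 were listed at 0 in both day 0 columns, against 6901 of all 23417 loci. Whether Dmd was unexpressed at day 0 or its estimate failed was not tested.

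**Figure D1:**
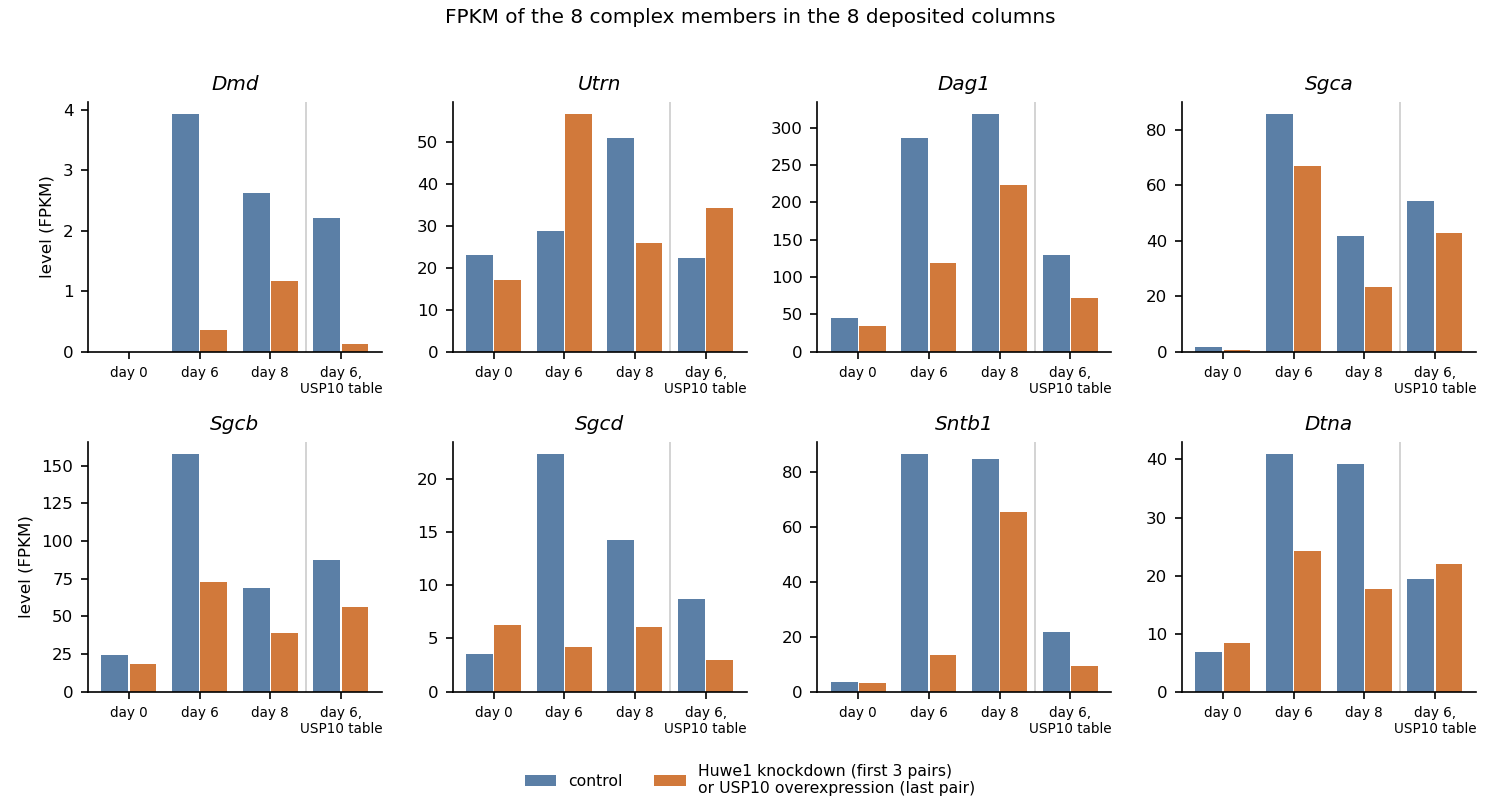
Bars give the FPKM of each member in the control (blue) and treated (orange) column of the 4 tables, on a linear axis that starts at 0 and differs between panels; each bar is 1 deposited value, without error. Dmd is listed at 0 at day 0, and Utrn is higher in the treated column at day 6 in both the Huwe1 and the USP10 table, at 56.5 and 34.3 FPKM.

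The members were next compared between knockdown or overexpression and the control of the same table, as log2 ratios with 0.01 FPKM added to each value, over genes with at least 1 FPKM in 1 column. In myoblasts at day 0, 7 members were kept and 1 of them, Sgca, was at least 2-fold lower and 0 were at least 2-fold higher, against 1.69% of the 10874 kept genes lower and 1.9% higher. Their median log2 ratio was -0.39. At day 6, 5 of 8 members (Dmd, Dag1, Sgcb, Sgcd and Sntb1) were at least 2-fold lower in the knockdown and 0 higher, with a median of -1.19, beside 13.4% of 11695 genes lower and 17.6% higher. In day 8 myotubes all 8 members were below their control, 3 of them (Dmd, Sgcd and Dtna) at least 2-fold, with 0 at least 2-fold higher and a median of -0.91, where 10% of 11755 genes were lower and 7.89% higher. With USP10 overexpression 3 of 8 (Dmd, Sgcd and Sntb1) were at least 2-fold lower and 0 higher, with a median of -0.75, and 10% of 11482 genes were lower and 9.7% higher. The median of all kept genes lay between -0.01 and 0.05 in these comparisons.

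**Figure D2:**
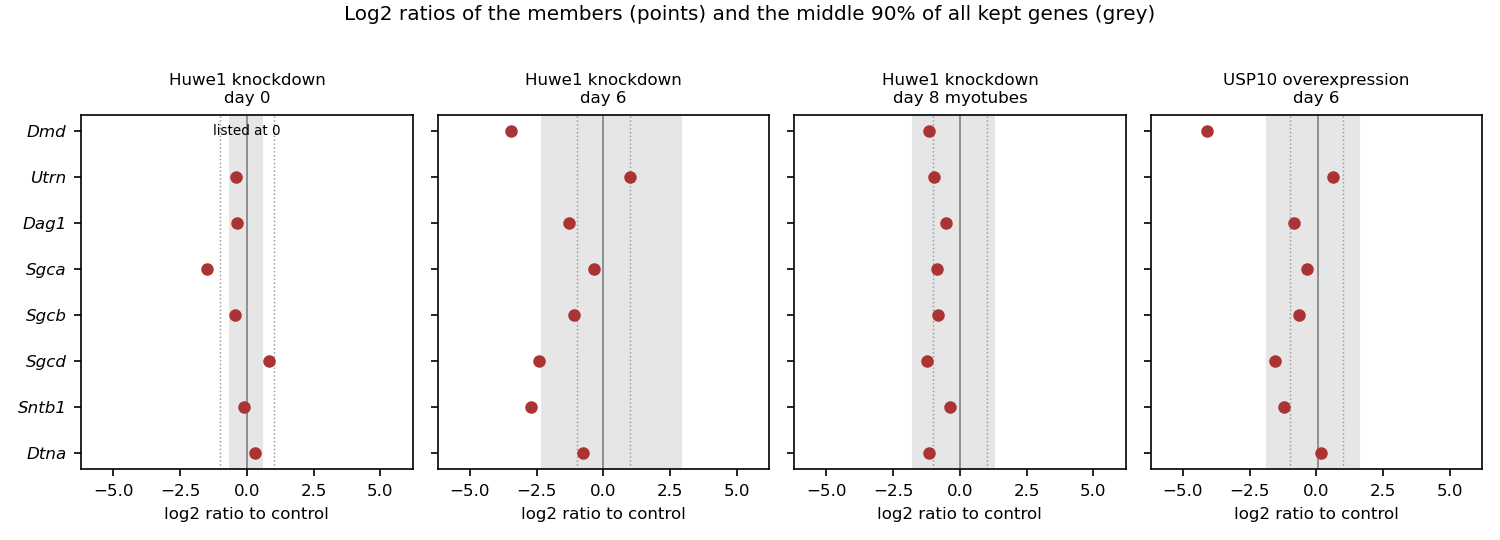
Points give the log2 ratio of treated to control FPKM of each member in the 4 comparisons, the grey band the middle 90% of all kept genes, the solid line their median and the dotted lines a 2-fold difference. At day 6 Dmd (-3.45), Sgcd (-2.42) and Sntb1 (-2.71) lie left of the band, whereas at day 8 all 8 members lie inside it.

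Dmd, on chromosome X from 82948870 to 85205050 and the longest of the 8 loci at 2256.2 kb, encodes dystrophin, the link between actin and the membrane. The day 6 table gave 3.93 FPKM in the control against 0.350 in the knockdown, a log2 ratio of -3.45, and 2.5% of kept genes had a lower ratio. The day 8 table gave 2.62 FPKM in the control against 1.17 in the knockdown, a log2 ratio of -1.16. The USP10 table gave 2.21 FPKM in the control and 0.120 with USP10, a log2 ratio of -4.09, with 1.5% of genes lower. Dystrophin had the lowest ratio of the members at day 6 in both tables, at levels that were low throughout. With 1 FPKM added in place of 0.01, its day 6 log2 ratio was -1.87, nearer to 0 than those of Sntb1 (-2.63) and Sgcd (-2.17), and with USP10 it was -1.52. If all its fragments came from the longest transcript, those levels would be worth about 257 fragments in that control and 49.8 with USP10, which limits the precision of the latter. Its row cannot separate full-length dystrophin from the short isoform. Over all 8 columns the genes whose log2 levels followed Dmd most closely, of 10236 compared, were Dcaf6 (Pearson r = 0.997), Klhl41 (0.996), a muscle kelch protein, and Cap2 (0.996), an actin-binding protein. The levels had 0.01 FPKM added, so the 2 day 0 columns, where Dmd was listed at 0, weigh heavily on r. Whether r and this order hold with another pseudocount was not tested. These columns share controls and differentiation stage, and no test was run on the correlation.

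Utrn, on chromosome 10 from 12382188 to 12861735, encodes utrophin, the autosomal homologue of dystrophin that is spread along the membrane in immature muscle and can take over part of its role. At day 6 it was at 28.6 FPKM in the control against 56.5 in the knockdown, a log2 ratio of 0.98, just under 2-fold. With USP10 it was at 34.3 FPKM against 22.3 in the control, a log2 ratio of 0.62. At day 0 it was at 23.0 FPKM in the control against 17.1 in the knockdown (log2 ratio -0.42), and at day 8 at 50.9 and 25.9 (log2 ratio -0.98). Utrophin was thus higher in the treated library at day 6 in both tables and lower in it at day 0 and day 8. Within a column, the level of Utrn was 7.27 times that of Dmd in the day 6 control and 162 times in the knockdown. In the USP10 table this level ratio was 10.1 in the control and 284 with USP10. In day 8 myotubes, where both genes were lower in the knockdown, it was 19.4 and 22.1. The ratios of 162 and 284 rest on Dmd at 0.350 and 0.120 FPKM, and Utrn itself differed by under 2-fold in both tables.

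Dag1, on chromosome 9 from 108204861 to 108263958, encodes both dystroglycan subunits and had the highest level of the 8 members in each of the 8 columns. At day 6 it was at 286 FPKM in the control against 118 in the knockdown, a log2 ratio of -1.28. At day 8 it was at 318 and 223 FPKM (log2 ratio -0.51), and in the USP10 table at 129 and 71.8 (log2 ratio -0.85). At day 0 it was at 44.5 and 34.0 FPKM, a log2 ratio of -0.39. The dystroglycan gene was lower in the treated column in every table, and at least 2-fold so at day 6 of the Huwe1 series.

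The sarcoglycan members did not move by like amounts. Sgca (chromosome 11, 94962777 to 94976327), the alpha subunit found in striated muscle, was at 1.74 FPKM in the day 0 control and 0.609 in the knockdown, a log2 ratio of -1.5 at low levels. At day 6 it was at 85.6 and 66.8 FPKM (log2 ratio -0.36), at day 8 at 41.8 and 23.2 (-0.85), and in the USP10 table at 54.4 and 42.8 (-0.35). Alpha-sarcoglycan was 1.28-fold lower at day 6 and 1.27-fold lower with USP10, the smallest differences among the sarcoglycan members. The testis histone gene Hils1 overlaps its locus and was at no more than 0.566 FPKM. Sgcb (chromosome 5, 73632749 to 73647731), the beta subunit, was at 158 and 73.1 FPKM at day 6, a log2 ratio of -1.11. Its log2 ratio was -0.45 at day 0, -0.82 at day 8 and -0.64 with USP10. Sgcd (chromosome 11, 46978783 to 47379302), the delta subunit that pairs with beta, was at 22.3 FPKM in the day 6 control and 4.16 in the knockdown, a log2 ratio of -2.42. It was at 14.2 and 6.07 FPKM at day 8 (log2 ratio -1.23), and at 8.71 and 2.94 in the USP10 table (-1.56). At day 0 it was the other way round, 3.53 FPKM in the control against 6.24 in the knockdown, a log2 ratio of 0.82. Delta-sarcoglycan was thus the only sarcoglycan member at least 2-fold lower in each of the 3 differentiated comparisons. The level of Sgcb was 7.07 times that of Sgcd in the day 6 control and 17.5 times in the knockdown.

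Sgce was read in every table, a choice made after its values were seen. Sgce encodes the epsilon subunit, which stands in for alpha outside striated muscle, and was at 35.8 and 35.3 FPKM at day 0. At day 6 it was at 4.60 FPKM in the control against 151 in the knockdown, a log2 ratio of 5.03. With USP10 it was at 126 FPKM against 22.0, a log2 ratio of 2.51, and at day 8 at 12.6 against 8.20. The level of Sgce relative to Sgca was 20.5 in day 0 control myoblasts and 0.0537 in the day 6 control. It was 2.26 in the day 6 knockdown, 0.405 in the control of the USP10 table and 2.93 with USP10.

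**Figure D3:**
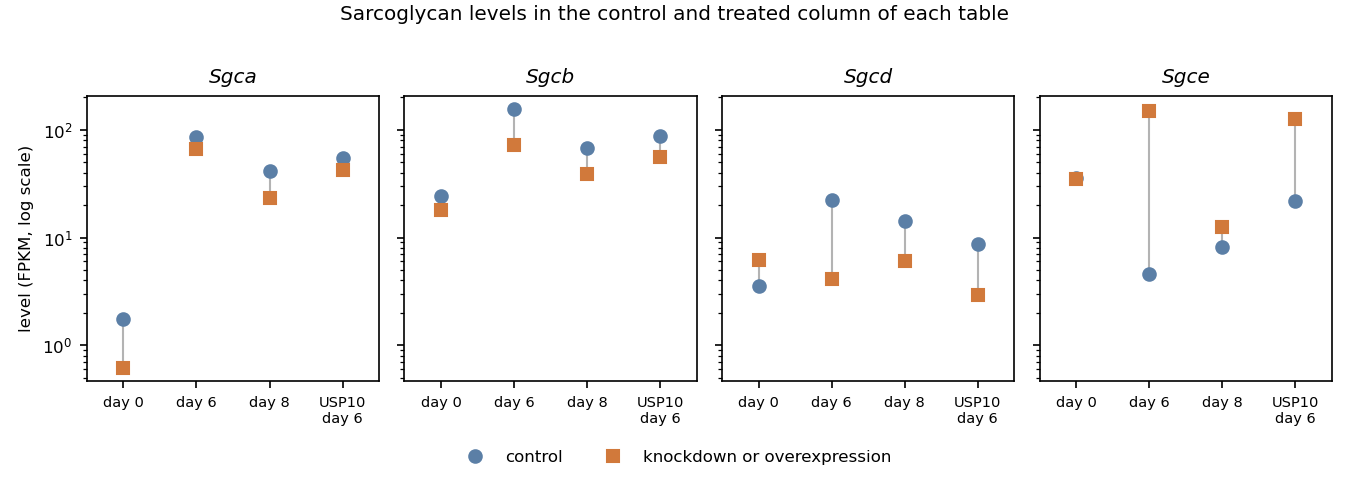
Each panel gives the FPKM of 1 sarcoglycan gene, on a log axis, in the control (circles) and treated (squares) column of the 4 tables, joined by a line. Sgcd is lower in the treated column after differentiation, Sgca differs little at day 6, and Sgce lies at 151 and 126 FPKM in the treated day 6 columns.

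Sntb1 (chromosome 15, 55639154 to 55906949) encodes beta1-syntrophin, an adaptor that binds the tail of dystrophin. At day 6 it was at 86.5 FPKM in the control against 13.2 in the knockdown, a log2 ratio of -2.71. It was at 84.6 and 65.6 FPKM at day 8 (log2 ratio -0.37), at 21.8 and 9.33 in the USP10 table (-1.23), and at 3.43 and 3.17 at day 0 (-0.12). Beta1-syntrophin had the second lowest ratio of the members at day 6, the lowest with 1 FPKM added, and the ratio nearest to 0 at day 8. Dtna (chromosome 18, 23415415 to 23659714) encodes alpha-dystrobrevin, a cytoplasmic partner related to dystrophin. It was at 40.9 FPKM in the day 6 control and 24.3 in the knockdown (log2 ratio -0.75), and at 39.3 and 17.6 at day 8 (-1.16). In the USP10 table it was at 19.5 FPKM in the control and 22.0 with USP10 (0.17), and at day 0 at 6.74 and 8.34 (0.31). Unlike Sntb1, Dtna lay further below its control at day 8 than at day 6.

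The 2 control columns of day 6 differed by amounts close to several of these ratios. All 8 members were lower in the control of the USP10 table than in that of the Huwe1 table, by log2 ratios from -0.36 for Utrn to -1.99 for Sntb1, with Dag1 at -1.14, Sgcd at -1.36 and Dtna at -1.07. Over all 11459 genes with at least 1 FPKM in either of these columns, 19.9% differed by at least 2-fold after centring. Of 8 muscle lineage and myotube markers, 6 were also lower in the control of the USP10 table, such as Myog at 619 and 305 FPKM and Ckm at 219 and 78.1, whereas Myh3 (616 and 676) and Myf5 (3.51 and 4.79) were higher in it. After centring, 1 of the 8 muscle markers, Ckm, was at least 2-fold lower, beside 7.61% of all kept genes. All 5 kept fibroblast and mesenchymal markers were at least 2-fold higher, beside 12.3% of all kept genes, with Dcn at 7.94 and 50.3 FPKM. The part of the muscle and fibroblast markers in the members' levels was not tested. Set against the control of the USP10 table, the day 6 Huwe1 knockdown had log2 ratios of -2.62 for Dmd, -1.06 for Sgcd and 1.34 for Utrn, whereas Dag1 (-0.13), Sgca (0.30), Sgcb (-0.26), Sntb1 (-0.73) and Dtna (0.32) were under 2-fold. The lower Dmd and Sgcd and the higher Utrn of the day 6 knockdown were seen against both controls. The 2-fold lower Dag1, Sgcb and Sntb1 were seen only against the control of its own table. USP10 overexpression set against the control of the Huwe1 table gave -4.92 for Dmd, -3.21 for Sntb1, -2.92 for Sgcd, -1.99 for Dag1 and -1.5 for Sgcb, and 0.26 for Utrn.

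**Figure D4:**
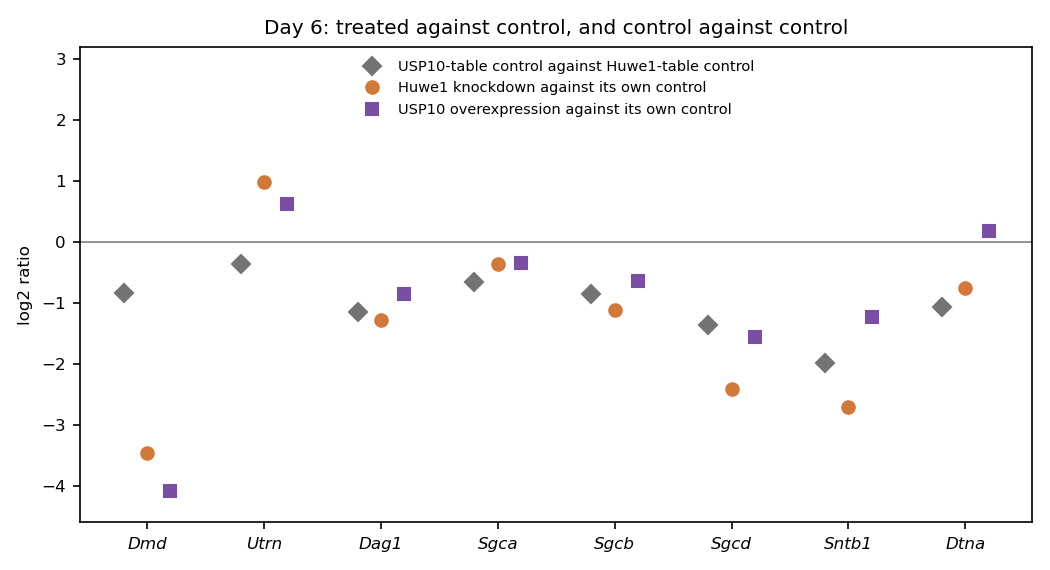
Log2 ratios at day 6 for each member: grey diamonds compare the control of the USP10 table with that of the Huwe1 table, circles the Huwe1 knockdown and squares USP10 overexpression with their own controls. For Dag1 (-1.14 and -1.28) the difference between the controls is about as large as the knockdown ratio, whereas for Dmd (-0.83 and -3.45) it is smaller.

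Genes that make up or serve the rest of the complex were read from lists of general knowledge. For this and the following lists, counts against a list's own control stand beside the shares of all kept genes at least 2-fold lower and higher. These shares were 1.69% and 1.9% at day 0 and 13.4% and 17.6% at day 6. They were 10% and 7.89% at day 8 and 10% and 9.7% with USP10. Of 11 other members of the complex examined, 5 were kept at day 0, with 0 at least 2-fold lower or higher. At day 6, 2 of 6 kept were lower and 2 higher. Besides Sgce, Cav3, the muscle caveolin that binds dystroglycan, was at 88.6 FPKM in the control against 3.19 in the knockdown, a log2 ratio of -4.79, and Sspn, sarcospan, was at 55.5 and 19.6. At day 8, 1 of 7 kept, Cav3, was lower and 2 were higher. Cav3 was at 54.6 and 14.3 FPKM, and Nos1, the neuronal nitric oxide synthase that syntrophin anchors, was at 3.22 FPKM in the control against 21.9 in the knockdown, a log2 ratio of 2.76. With USP10, 4 of 7 kept were lower and 1, Sgce, higher. Cav3 was at 28.8 FPKM in the control and 2.76 with USP10, Sspn at 52.4 and 18.6, and Drp2, a dystrophin-related protein, at 28.3 and 9.39. Nos1, named here after its values were seen, was at 8.10 and 0.0393 FPKM, whereas the day 6 control of the Huwe1 table had it at 0.946. Cav3 was the gene of this list at least 2-fold lower in all 3 differentiated comparisons.

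The enzymes that build the laminin-binding glycan of dystroglycan, like most genes, stayed mostly within 2-fold. Of 16 genes in the tables, 15 were kept at day 0 with 0 at least 2-fold lower or higher, and all 16 were kept elsewhere. At day 6, 2 were lower and 1 higher, beside 13.4% and 17.6% of all kept genes, with a median log2 ratio of -0.10. Pomgnt1, which extends O-mannose, was at 40.3 FPKM in the control against 19.2 in the knockdown, and Dpm3, a subunit of the dolichol-phosphate mannose synthase, at 2.80 and 8.48. At day 8, 0 were lower and 1 higher, with a median of 0.27. With USP10, 1 was lower and 1 higher, with a median of 0.21, and Gmppb, which makes the GDP-mannose used here, was at 5.61 FPKM in the control and 19.3 with USP10. Large, which adds the laminin-binding repeats, had log2 ratios from -0.13 to 0.26 over the 4 tables (named after its values were seen).

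Outside the cell, laminins and other ligands of dystroglycan were mostly higher in the day 6 knockdown than in its own control, a count that rested on which day 6 control was used. Of 11 kept genes 6 were at least 2-fold higher and 0 lower than the control of their own table, beside the 17.6% higher and 13.4% lower of all kept genes, with a median log2 ratio of 1.34. Lamb1, the laminin beta1 chain, was at 12.9 FPKM in the control against 68.1 in the knockdown. Lama2, the alpha2 chain of muscle basement membrane, was at 9.66 and 28.7 FPKM, Hspg2, perlecan, at 30.1 and 83.8, and the proteoglycan Bgn, biglycan, at 194 and 531. At day 0, 1 of 10 was lower and 0 higher. At day 8, 2 of 11 were lower and 3 higher, with Lamb3 at 7.33 and 1.19 FPKM and Lama5 at 10.9 and 27.5. With USP10, 2 of 11 were lower and 0 higher, and Bgn was at 2089 FPKM in the control and 667 with USP10. The 2 day 6 controls differed widely for these genes, with Bgn at 194 FPKM in that of the Huwe1 table and 2089 in that of the USP10 table, Lamb1 at 12.9 and 37.9, and Hspg2 at 30.1 and 58. The treated columns were closer, with Bgn at 531 FPKM in the knockdown and 667 with USP10, Lamb1 at 68.1 and 60.2, and Hspg2 at 83.8 and 66. Against the control of the USP10 table, after centring on the median gene, 2 of 11 ligands were at least 2-fold higher in the knockdown and 1, Bgn, lower, beside 12.1% and 10.6% of all kept genes. Of the 6 higher against its own control, only Lama2 was also higher against the other. USP10 overexpression against the control of the Huwe1 table had 5 of 11 higher and 1 lower, beside 17.6% and 15.3% of genes. The counts of higher ligands at day 6 thus differed with the control used.

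Integrins and costamere linkers, the other route from actin to the matrix, differed in both directions. In the day 6 knockdown against its own control the shares were near those of all genes. At day 0, 1 of 21 kept was at least 2-fold lower and 1 higher, with Tln2 (talin 2) at 18.9 and 8.43 FPKM and Lims2, an adaptor of integrin-linked kinase, at 1.52 and 5.39. At day 6, 4 of 23 were lower and 4 higher, beside 13.4% and 17.6% of all kept genes. Itgb1bp2, melusin, a muscle partner of beta1 integrin, was at 104 FPKM in the control against 8.10 in the knockdown, Flnc, filamin C, which binds the sarcoglycans, at 339 and 87.9, and Itga3 at 6.54 and 29.4. At day 8, 4 of 23 were lower and 2 higher, with Itga6 at 15.4 and 1.82 FPKM and Itgb1bp2 at 87.2 and 24.4. With USP10, 5 of 25 were lower and 1 higher, beside 10% and 9.7% of all kept genes. Itgb1bp2 was at 15.9 and 1.69 FPKM, Flnc at 253 and 102, and Lims2 at 2.52 and 40.1. Against the control of the USP10 table, after centring, 7 of 25 were lower and 2 higher in the day 6 knockdown. The shares of all kept genes were then 10.6% and 12.1%. Itga7, the laminin receptor that works in parallel to dystroglycan in muscle, was named after its values were seen. Its log2 ratio was -0.91 at day 0 (88.1 and 46.8 FPKM), where 2.1% of kept genes had a lower ratio. The ratio of Itga7 was -0.08 at day 6, -0.11 at day 8 and 0.10 with USP10.

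**Figure D5:**
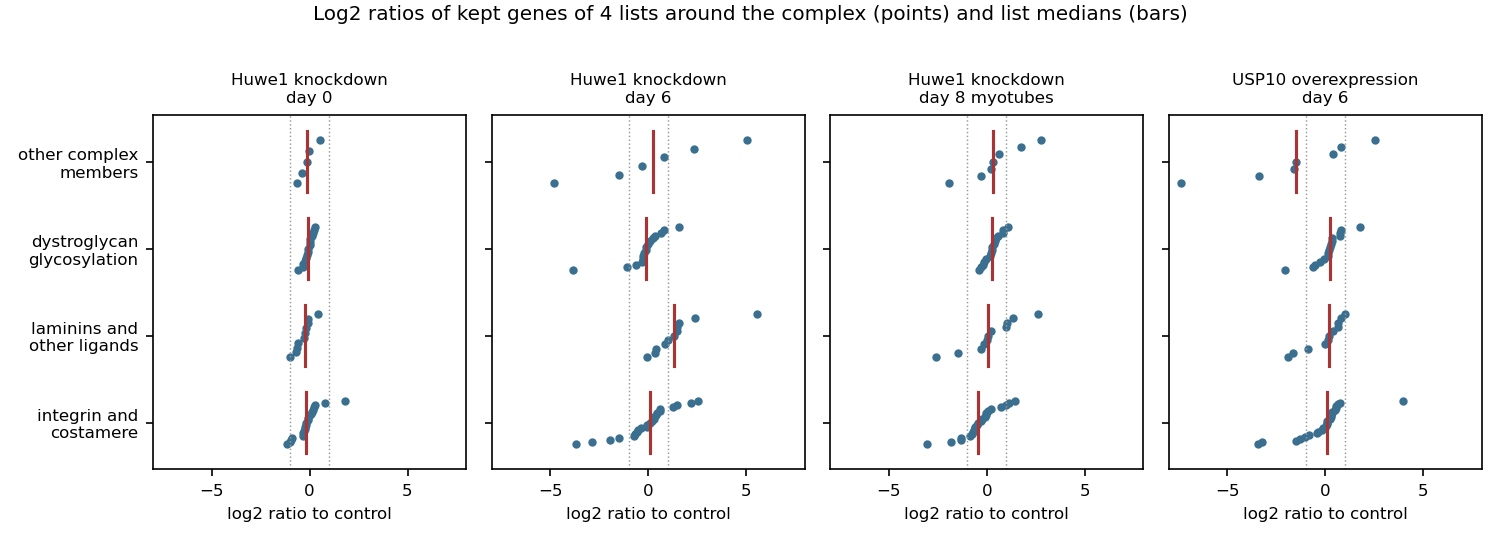
Points give the log2 ratio of each kept gene of the 4 lists in the 4 comparisons, bars the median of the list and dotted lines a 2-fold difference. The median of the laminins and other ligands is 1.34 in the day 6 knockdown and 0.19 with USP10, each against the control of its own table, and that of the glycosylation enzymes lies between -0.10 and 0.27.

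Markers of other states and cells moved with these genes. Of 8 muscle lineage and myotube markers, 6 were at least 2-fold lower and 1, Myf5, higher in the day 6 knockdown, where their summed level was 7727 FPKM in the control against 2255 in the knockdown. At day 8, 6 were lower and 0 higher (7826 and 2296 FPKM), with USP10 4 were lower and 1 higher (4416 and 2784), and at day 0, 1 of 4 kept was lower (385 and 199). Myog was at 619 and 27.1 FPKM at day 6, 392 and 148 at day 8 and 305 and 28.8 in the USP10 table. In such bulk RNA, fewer myotubes and less RNA of a gene per myotube cannot be told apart for any member. Fibroblast and mesenchymal markers were higher at day 6, where all 6 kept of 8 were at least 2-fold higher in the knockdown, at a summed 17.8 FPKM in the control against 3834 in the knockdown, and 4 of 6 were higher with USP10 (170 and 3659). Dcn was at 7.94 and 2987 FPKM and at 50.3 and 3037, whereas Thy1 was at no more than 0.0764 FPKM in any column and Tcf21 was listed at 0 in all. Against the control of the USP10 table, after centring, 4 of 6 were higher in the day 6 knockdown, beside 12.1% of all kept genes. USP10 overexpression against the control of the Huwe1 table had 6 of 6 higher, beside 17.6%. At day 0, 1 of 5 kept was higher (181 and 166 FPKM) and at day 8, 1 was lower and 2 higher of 5 (96.3 and 91.9). The part of these cells or states in the members' levels, and in those of Sgce and the laminins, was not tested.

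The lists of other cell types, smooth muscle apart, held few expressed genes. Of 5 adipocyte markers only Fabp4 was kept, with at most 4.68 FPKM, and Adipoq was listed at 0 in all columns. Of 5 endothelial markers Pecam1 and Kdr stayed at or under 0.346 FPKM, and Tek was at 0.0616 and 1.08 at day 6. Cdh5 was at 13.5 FPKM in the day 0 control and 11.2 in the knockdown. It was at 0.0241 and 6.83 FPKM at day 6, and at 0.278 and 6.81 in the USP10 table. Of 5 macrophage and leukocyte markers only Cd68 was kept, at 0.780 to 4.65 FPKM, and Ptprc was at no more than 0.0102. Of 6 neuron and Schwann cell markers only S100b was kept, at 0.0627 and 4.34 FPKM at day 6, and Sox10 reached no more than 0.0932. Of 5 smooth muscle markers, Acta2 was at 419 FPKM in the day 0 control and 906 in the day 6 control of the Huwe1 series. Myh11 stayed at or under 0.232 FPKM. Of these 5 markers, 0 were at least 2-fold lower or higher at day 0 and day 6, 2 were lower at day 8 and 1 with USP10.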

How the data were processed

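Directional mRNA-seq of C2C12 cells was taken from oligo(dT)-selected RNA. The authors mapped the reads (Tophat in the methods, Bowtie2 in the submitters' processing notes, mm10) and estimated expression with Cuffdiff, whose deposited tables hold 1 FPKM value per condition; tool versions are not given in the sources used here. The tables also hold the authors' log2 fold changes, test scores, p-values and q-values, which were not used. All 8 FPKM columns in 4 tables were used as deposited.

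From the FPKM, log2 ratios were computed with a pseudocount of 0.01, over genes that reached 1 FPKM in either column, and a 2-fold difference was counted. Ratios of low genes depend on the pseudocount. That of Dmd at day 6 was -3.45 with 0.01 FPKM added and -1.87 with 1 FPKM added. No test was possible with 1 value per condition. The members and the 4 gene lists and 7 marker lists, written from general knowledge, were chosen with earlier results of these data known. Named genes were all members and, per list and comparison, up to the 4 largest absolute ratios among genes that reached 1 FPKM on both sides and 5 FPKM on 1, plus the 3 genes nearest in pattern to Dmd and to Sgca, Huwe1, Usp10 and the markers. Of the glycosylation list, Pomk was not matched, and 2 further genes of the complex are not reported here. Depth was estimated from genes with 1 transcript of at least 1500 bases, and pooled columns gave no estimate. It covers counting only. Promoters came from RefSeq (GRCm38.p6). The computations were checked on simulated data and run in Python 3.11.15 (pandas 2.3.3, numpy 2.4.6), with figures drawn in matplotlib 3.10.9. Alternatives were other pseudocounts, minima, fold thresholds and centring, and the other day 6 control, chosen after the data were seen.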

Additional observations from a re-analysis of the deposited data

Results flagged for a closer look

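Some genes had ratios of opposite sign in different comparisons. These differences between comparisons were not tested, since each rests on 1 value per condition. Utrn had a log2 ratio of 0.98 in the day 6 knockdown and 0.62 with USP10, but -0.98 in day 8 knockdown myotubes. Sgcd had a log2 ratio of 0.82 in day 0 knockdown myoblasts, whereas it was -2.42 at day 6, -1.23 at day 8 and -1.56 with USP10. Among the matrix ligands, Bgn had a log2 ratio of 1.45 in the day 6 knockdown and -1.65 with USP10. Its treated columns were at 531 and 667 FPKM, while the 2 controls were at 194 and 2089, and against the control of the USP10 table the knockdown had a centred log2 ratio of -2.03. Among the integrins, Itga6 had a log2 ratio of 1.28 in the day 6 knockdown and -3.07 in day 8 myotubes.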

How the results depend on the processing

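No paired analysis was possible because the tables hold both knockdown libraries in 1 pooled column, and for the same reason no replicate could be left out. Of the alternative values of the member counts and medians, 86 stayed close to the reported ones and 20 moved. At day 0 the 1 lower member was lost (0) with a pseudocount of 1, with at least 1 FPKM in both columns, with a minimum of 5 FPKM and at 3-fold; with at least 1 FPKM in both columns the median was -0.25. At 1.5-fold, 1 member was higher at day 0, at day 6 and with USP10, 6 were lower at day 8 and 5 with USP10. At 3-fold, 3 were lower at day 6, 0 at day 8 and 1 with USP10. The shares of all genes at 1.5-fold and 3-fold were not computed. The median with USP10 was -0.64 with at least 1 FPKM in both columns and with a minimum of 5 FPKM. Against the other day 6 control, after centring on the median gene, 2 members were lower and 1 higher in the day 6 knockdown (median -0.25). Of all kept genes 10.6% were lower and 12.1% higher there. With USP10, 5 members were lower (median -1.74), where 15.3% of genes were lower and 17.6% higher. In the same way the day 6 knockdown had 7 of 25 integrin and costamere linkers lower and 2 higher, and the median of the laminins and other ligands was 0.64; with USP10 that median was 0.97, and the 1 kept macrophage and leukocyte marker changed sign (0.51). With no minimum, 3 medians of lists with 1 kept gene changed sign, those of the neuron and Schwann cell markers at day 6 (-0.72) and with USP10 (-0.47) and of the macrophage and leukocyte markers at day 8 (-0.65). With a pseudocount of 1 the log2 ratio of Dmd was -1.87 at day 6, -0.74 at day 8 and -1.52 with USP10.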

Other observations

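Over the 8 columns, the genes whose log2 levels followed Sgca most closely, of 10236 compared, were Ssbp2 (Pearson r = 0.996), Jsrp1 (0.995), a protein of the sarcoplasmic reticulum junction, and Tcp11l2 (0.993). Jsrp1 was at 227 FPKM in the day 6 control and 153 in the knockdown, and at 98.2 and 112 in the USP10 table. Cap2, near Dmd in pattern, was at 196 FPKM in the day 6 control and 1.40 in the knockdown, and at 69.5 and 0.619 in the USP10 table. Among the members, levels of Dag1 and Sntb1 had the highest Pearson r over the 8 columns (0.989) and those of Utrn and Sgcd the lowest (0.04). These are descriptions over columns that share stages and controls.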
